A study of Vitis vinifera with 36 samples.

Results

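The cultivar by season difference at E-L 38 is, for each gene, the log2 fold change of winter over summer in “Riesling” minus the log2 fold change of winter over summer in “CS” (“Cabernet Sauvignon”). It was called for 2701 genes, or 13.4% of the 20183 genes tested, at an adjusted p of at most 0.01 (edgeR's quasi-likelihood F-test, Benjamini-Hochberg adjustment over all genes tested). The difference was above 0 for 1286 genes (6.37% of those tested) and below 0 for 1415 genes (7.01%). The “Riesling” summer libraries labelled E-L 38 stood apart in ripening position, as described below. Season and ripening position therefore cannot be told apart in this difference. With “Riesling” summer E-L 36 in place of these libraries, 922 of the 2701 genes (34.1%) were called again in the same direction. Of the 2701 genes, 1748 were also called as changing between developmental stages and 953 were not. The gene just inside the limit had an adjusted p of 0.00998 and the gene just outside it 0.01002. Over all genes tested the median difference was 0.01 on the log2 scale.

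RNA of grape berries (*Vitis vinifera*) was sequenced from a winter and a summer crop of 2014, which the same vineyard yields under double cropping. The 12 libraries compared are “Riesling” winter, “Riesling” summer, “CS” winter and “CS” summer, each at E-L 38 and each with 3 biological replicates of 50 deseeded berries, so that the whole pericarp, skin and flesh together, was measured. “CS” is a red and “Riesling” a white cultivar. All 4 groups come from vines of the same recorded age on SO4 rootstock in southern China. The vines stood under a rain shelter and were forced with hydrogen cyanamide before each crop. The summer crop followed pruning in February and the winter crop pruning in August, with harvest in January. The other 24 libraries of the series, at E-L 35 (onset of veraison) and E-L 36 (end of veraison), give the changes between stages. Each cultivar was sampled at a single site in a single year, so season cannot be told apart from that year's weather. In bulk RNA, fewer cells of a type and less RNA per cell cannot be told apart.

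The E-L system numbers the visible stages of the vine, and veraison is the point at which berries soften, take up sugar and, in red cultivars, colour. Across it, genes of photosynthesis, tannin synthesis and auxin response generally decline, and genes of sugar transport, abscisic acid response and, in red cultivars, anthocyanin synthesis generally become active. Abscisic acid is known to promote grape ripening and auxin to delay it. A season effect measured at a fixed stage label therefore also depends on how far ripening had gone in each group.

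The deposited values are expected counts, which estimate how many reads each gene had, and FPKM, which scales these by gene length and library size. The totals at E-L 38 were 8502366 to 28222772 expected counts per library (median 10079592), at which 3 counts are 0.106 to 0.353 CPM. Replicates of a group had a Pearson correlation of 0.970 to 0.989 in log2 CPM. The markers fit the labelled cultivars. The summed FPKM of 5 genes of anthocyanin synthesis was 7.63 to 10.3 in “Riesling” winter and 10.6 to 10.9 in “Riesling” summer, against 132 to 245 in “CS” winter and 55.2 to 131 in “CS” summer. Of these 5 genes only *VviUFGT*, the anthocyanidin glucosyltransferase, was above 0 in every “Riesling” library. The summed FPKM of 4 genes of tannin synthesis, which green berries and seeds express, was 6.87 to 8.06 in “Riesling” winter and 20.3 to 26.4 in “Riesling” summer, against 10.5 to 15.0 in “CS” winter and 12.5 to 13.7 in “CS” summer. It was therefore highest in the “Riesling” summer libraries, as were the reductase genes *VviLAR1* and *VviLAR2* among the 4. The tannin regulator *VviMYBPA1*, also among the 4, was not, with 2.59 to 2.93 FPKM there and 7.12 to 7.51 FPKM in “CS” summer. The part of these markers in the results was not tested.

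The “Riesling” summer libraries labelled E-L 38 stood apart from the other 9 in ripening position. A ripening index was computed from standardized log2 CPM. It is the average over 426 genes that rose across veraison less the average over 1051 genes that fell, both chosen on the 24 libraries of E-L 35 and E-L 36 alone (called in at least 2 of the 4 series and in the opposite direction in none). At E-L 38 the index was 1.14, 1.16 and 1.20 in the “Riesling” winter libraries, -0.56, -0.53 and -0.54 in the “Riesling” summer libraries, 0.92, 0.85 and 0.83 in the “CS” winter libraries and 0.73, 0.68 and 0.66 in the “CS” summer libraries. The “Riesling” summer libraries labelled E-L 38 thus lay below those of the same crop labelled E-L 36, which were at 0.64, 0.69 and 0.77. On this index a fall from E-L 36 was not particular to that crop. The “CS” winter libraries of E-L 36 were at 1.10, 1.31 and 1.26, above those of E-L 38, although both stages stayed above 0. A second index used genes called at E-L 38 over E-L 35 in “Riesling” winter and both “CS” crops, so a rise in these crops is built in. From E-L 36 to E-L 38 it went from 0.01 ± 0.07 to 2.55 ± 0.12 in “CS” winter. In “Riesling” summer it went from 0.33 ± 0.33 to -0.55 ± 0.08 (SD, n = 3 each). At E-L 38 the season difference in the first index was larger in “Riesling” than in “CS” by 1.53, against a pooled SD of 0.03 among replicates. The deposited labels were used as given. Results are also given with “Riesling” summer E-L 36 in place of these libraries, which removes the doubted libraries but sets berries of E-L 36 against berries of E-L 38.

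**Figure D1:**
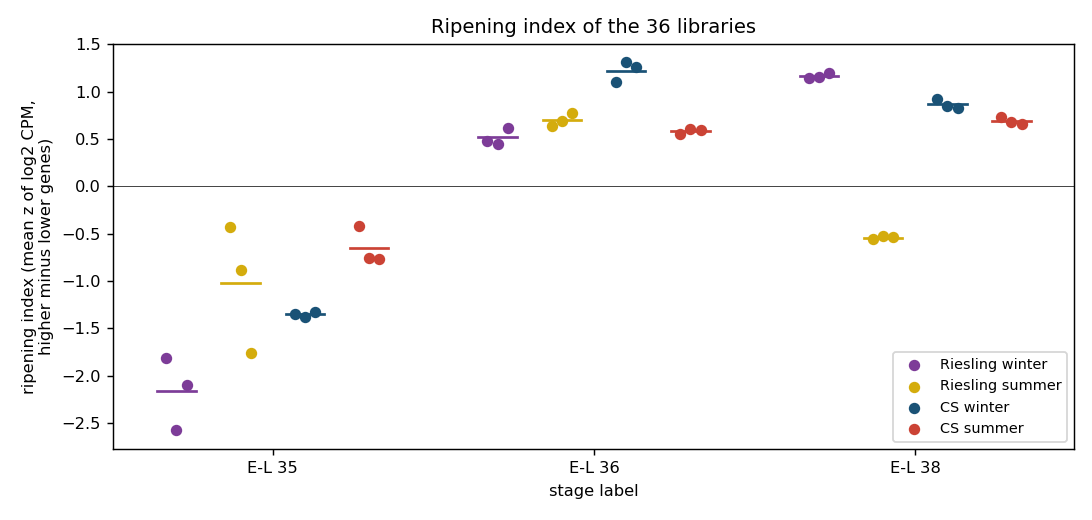
The ripening index of each of the 36 libraries (vertical axis, mean z of log2 CPM of higher minus lower genes) by stage label, with winter left of summer and “Riesling” left of “CS”; points are libraries and lines are means of 3. The “Riesling” summer libraries labelled E-L 38 lie at -0.56 to -0.53, below 0, while the other 9 libraries of E-L 38 lie at 0.66 to 1.20.

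A gene was counted as changing between stages when at least 1 of 9 stage contrasts called it (adjusted p not above 0.01, fold not under 2), which 46.6% of the tested genes met. The contrasts were E-L 36 over E-L 35, E-L 38 over E-L 36 and E-L 38 over E-L 35 in “Riesling” winter and both “CS” crops. By this definition 9400 genes changed between stages. The other 10783 are described below as without a stage change. This means only that no contrast called them, and some may have changed, also in “Riesling” summer, which the definition leaves out. The difference was called for 18.6% of the stage-changing genes and for 8.84% of the others. These 1748 stage-changing genes held 64.7% of all calls, with 756 differences above 0 and 992 below. Among the 953 other genes the balance lay the other way, with 530 above 0 and 423 below.

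The 2 classes differed in the size of what was called. The median size of a called difference was 1.73 on the log2 scale among stage-changing genes and 0.76 among the others. The stage contrasts with E-L 38 share libraries with the difference and carry a limit on the fold. Larger differences may thus fall into the stage-changing class in part by construction. A difference of at least 1 was reached by 1412 of the stage-changing calls (80.8%) and by 261 of the other calls (27.4%). The called genes without a stage change were the more abundant ones, with a median of 18.5 FPKM at E-L 38 against 9.89 FPKM for the called stage-changing genes. Over all tested genes the median was likewise 9.30 FPKM without and 4.40 FPKM with a stage change. With the limit of at least 1 on the log2 scale added to the call, 1673 genes were called (8.29% of those tested).

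**Figure D2:**
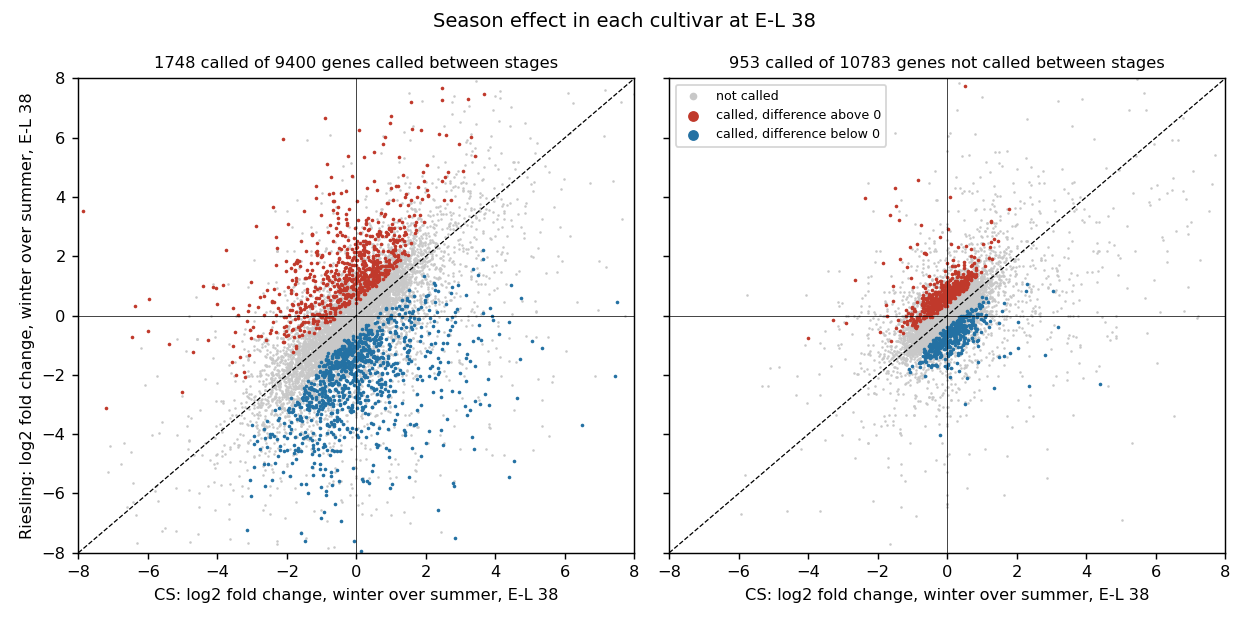
Log2 fold change of winter over summer at E-L 38 in “Riesling” (vertical axis) against “CS” (horizontal axis) for genes that changed between stages (left) and genes that did not (right); each point is a gene, red and blue points are called with a difference above and below 0, and the dashed line marks equal season effects. Called genes lie away from the dashed line, farther in the left panel, where 1748 of 9400 were called, than in the right, where 953 of 10783 were; 26 genes on the left and 8 on the right lie beyond the axis limits of 8.

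The stage contrasts above share libraries with the difference, so the split was repeated with E-L 36 over E-L 35 alone, which rests on the 24 libraries that the difference does not use. By that definition 4995 genes changed across veraison in at least 1 of the 4 series. The difference was called for 1060 of these, or 21.2%, and for 1641 of the 15188 others, or 10.8%. The median size of a called difference was 2.01 among the 1060 and 0.91 among the 1641, on the log2 scale. The direction differed between genes that rose and genes that fell across veraison. Of the 357 called genes that were higher at E-L 36 only, 303 (84.9%) had a difference above 0. This means a more positive season effect in “Riesling” than in “CS”, whichever of the 4 groups it came from. Of the 618 called genes that were lower at E-L 36 only, 525 had a difference below 0, and the 93 above 0 made up 15.0%. Where no series called a change, 52.3% of the 1641 called genes were above 0. The median difference over all tested genes of each class was 0.49 for the 1685 genes that were higher at E-L 36, -0.68 for the 3007 that were lower and 0.04 for the others, on the log2 scale.

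**Figure D3:**
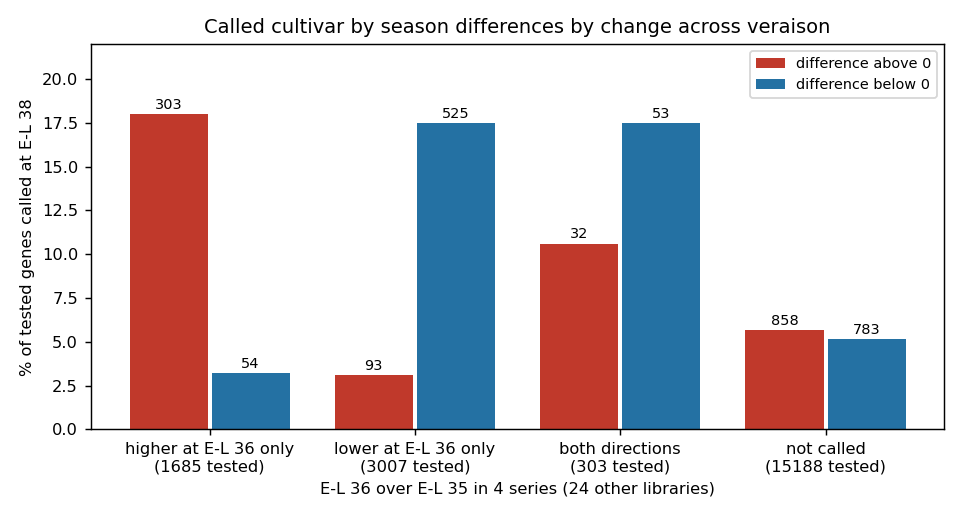
Share of tested genes called in the difference at E-L 38 (vertical axis, %) by their change across veraison (E-L 36 over E-L 35) in the 24 libraries outside the difference; red and blue bars are differences above and below 0, with the number of genes on each bar. Genes higher at E-L 36 were called above 0 in 18.0% and below 0 in 3.20%, and genes lower at E-L 36 above 0 in 3.09% and below 0 in 17.5%.

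The same direction was found when “Riesling” summer had no part in choosing the genes. From the change across veraison in “Riesling” winter and the “CS” crops, 231 of 307 called genes that were higher at E-L 36 (75.2%) had a difference above 0, and 401 of 501 called genes that were lower had a difference below 0. With “Riesling” summer E-L 36 in place of the libraries labelled E-L 38, 160 of 230 called genes in the higher class (69.6%) were above 0 and 298 of 405 in the lower class were below. The median difference over all tested genes of the higher class was then 0.13 in place of 0.41, and that of the lower class -0.41 in place of -0.59.

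The called genes were next described by the season effect within each cultivar, which is part of the difference and so carries no further test. At the same limits on adjusted p and fold as for stages, the season effect was called for 5626 genes in “Riesling” (27.9% of those tested) and 3469 in “CS” (17.2%). In “Riesling” 11.8% of the tested genes were higher and 16.1% lower in winter, and in “CS” 7.29% were higher and 9.90% lower. Of the 2701 genes, 1220 (45.2%) were called in “Riesling” alone, 514 higher and 706 lower in winter. A further 293 (10.8%) were called in “CS” alone, 279 (10.3%) in both cultivars in the same direction and 63 (2.33%) in opposite directions. For 846 genes (31.3%) neither season effect reached these limits. The season effect was larger in size in “Riesling” for 77.2% of the called genes, against 62.6% of all genes tested.

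These patterns were not shared evenly between the classes. Among the 1748 stage-changing genes, 54.8% were called in “Riesling” alone, 15.1% in both cultivars in the same direction and 12.7% in neither. Among the 953 others, 27.5% were called in “Riesling” alone, 1.57% in both in the same direction and 65.5% in neither. Without the limit on the fold, only 34 of the 953 had no season effect in either cultivar at an adjusted p of at most 0.01. At any fold, 482 of the 953 had a season effect in “Riesling” alone, 182 in “CS” alone and 255 in both, of which 58 were in opposite directions. The median size of the season effect in these genes was 0.74 in “Riesling” and 0.35 in “CS”, against 1.71 and 0.75 in the stage-changing genes, on the log2 scale.

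Of the 4 groups, “Riesling” summer lay farthest from the mean of the other 3 in log2 CPM for 1551 of the called genes (57.4%), against 42.0% of all genes tested. “Riesling” winter was farthest for 20.0%, “CS” winter for 10.8% and “CS” summer for 11.8% of the called genes. The share for “Riesling” summer was similar in both classes, at 58.6% of the stage-changing and 55.3% of the other called genes. The cultivars differed at a fold of at least 2 in winter for 545 of the called genes (20.2%, against 12.1% of all genes) and in summer for 1160 (42.9%, against 19.1%).

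With “Riesling” summer E-L 36 in place of the doubted libraries, 2464 genes were called, 1452 of them stage-changing (15.4% of that class) and 1012 not (9.39%). Of the 2701 genes, 922 (34.1%) were called again in the same direction, which is 37.4% of the 2464. The share called again was 36.5% of the 1748 stage-changing genes and 29.8% of the 953 others. The sign was kept, with or without a call, by 1515 of the 1748 (86.7%) and 838 of the 953 (87.9%). These comparisons share 9 libraries, so a kept sign is no independent support.

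The difference was also computed at E-L 36, from 12 other libraries, to see whether the cultivars differed in the same genes at the end of veraison. It was called there for 2359 genes (11.7% of those tested). Of the 2701 genes called at E-L 38, 512 were called at both stages, which is 19.0% of the calls at E-L 38 and 21.7% of those at E-L 36. Of these 512 genes, 190 had the same direction and 322 the opposite direction at the earlier stage. The difference at E-L 38 minus that at E-L 36 was called for 3028 genes (15.0%), among them 1496 (55.4%) of the 2701. That share was 59.2% for the stage-changing and 48.5% for the other called genes.

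Gene names were available for 212 tested genes in 13 lists of flavonoid, stilbene, UV-B and hormone genes. Of these, 19 were called above 0 and 16 below, or 16.5%, which is near the 13.4% of all genes tested. Of the 35 called, 33 changed between stages, but so did 160 of the 212 tested genes of the lists. Over all genes, 46.6% of those tested and 64.7% of those called changed between stages. With “Riesling” summer E-L 36 in place, 16 of the 35 were called again in the same direction. The lists were drawn from the study, which chose some hormone genes for their differences in the same libraries, so their counts are no independent evidence. Without both “CS” libraries of replicate number 1, which stood apart in the stilbene genes described below, the calls were 3 in place of 1 in the early flavonoid list, 4 in place of 2 in the late flavonoid list, 1 in place of 2 in the flavonol list, 2 in place of 1 in the UV-B list and 3 in place of 5 in the abscisic acid list.

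**Figure D4:**
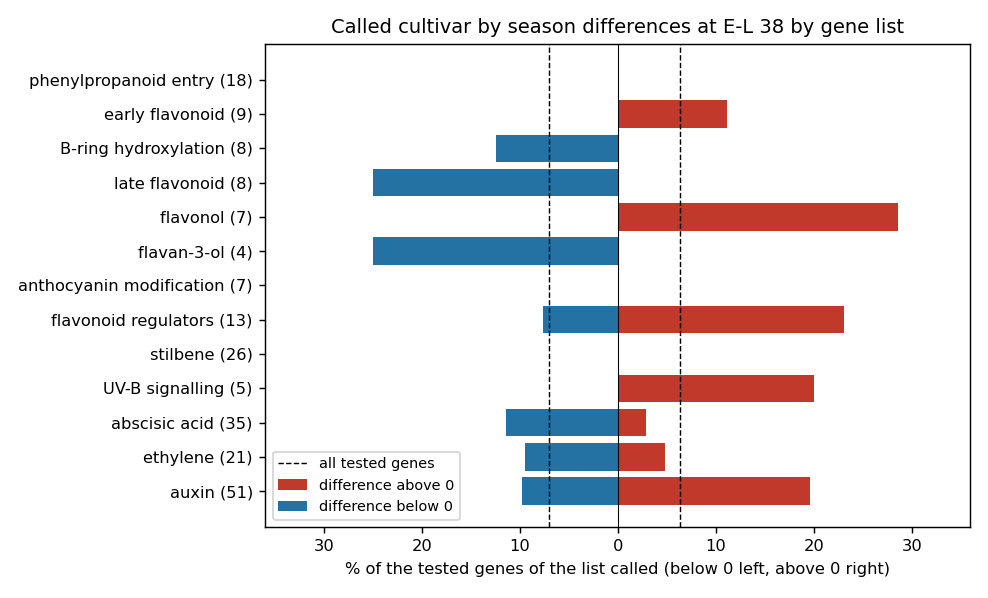
Share of the tested genes of each list called in the difference at E-L 38 (horizontal axis, %), with differences above 0 to the right in red and below 0 to the left in blue; numbers of tested genes are in brackets and dashed lines mark all genes tested. The auxin list holds 15 of the 35 calls, while the phenylpropanoid entry, stilbene and anthocyanin modification lists hold none.

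The early steps of the flavonoid pathway are given first. The phenylpropanoid entry list covers *VviPAL*, *VviC4H* and *Vvi4CL*, which turn phenylalanine into the precursor of flavonoids and stilbenes, and 0 of its 18 genes were called (edgeR; 2 at an unadjusted p under 0.05; 0 with DESeq2 and limma). Its median difference was 0.26 on the log2 scale (-0.26 with limma on log2(FPKM + 1)), and it turned to -2.35, with 2 genes called below 0, with “Riesling” summer E-L 36 in place. Of 9 early flavonoid genes, 1 was called (11.1%, near the 13.4% of all genes tested), the chalcone isomerase *VviCHI* (VIT_213s0067g03820), which closes the flavanone ring. Its FPKM was 68.2, 69.3 and 63.0 in “Riesling” winter and 22.4, 21.7 and 16.1 in “Riesling” summer, against 61.3, 54.5 and 54.2 in “CS” winter and 36.3, 35.5 and 41.1 in “CS” summer. Winter libraries were higher in both cultivars with no overlap, and the winter increase was larger in “Riesling” (difference 1.25 ± 0.21 SE on the log2 scale, adjusted p = 1.1e-04). The difference was 0.41 with “Riesling” summer E-L 36 in place (adjusted p = 0.168).

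The B-ring hydroxylases set whether 3′- or 3′5′-hydroxylated flavonoids are made, and 1 of 8 was called (12.5%, near the 13.4% of all genes tested). *VviF3′H* (VIT_203s0063g01690) had 0.880, 0.890 and 0.990 FPKM in “Riesling” winter and 5.96, 6.79 and 6.24 FPKM in “Riesling” summer, against 0.750, 1.18 and 0.780 FPKM in “CS” winter and 0.410, 1.33 and 1.10 FPKM in “CS” summer. Only the “Riesling” summer libraries stood out, and the “CS” seasons overlapped (difference -2.70 ± 0.35, adjusted p = 3.4e-06). The call was lost with “Riesling” summer E-L 36 in place (-0.94, adjusted p = 0.0589). In the stages before, its mean was 12.9 FPKM at E-L 35 and 2.84 FPKM at E-L 36 in “Riesling” winter. The 6 *VviF3′5′H* genes summed to 0.340 to 0.700 FPKM in “Riesling” winter and 0.530 to 0.840 FPKM in “Riesling” summer, against 123 to 251 FPKM in “CS” winter and 19.7 to 90.6 FPKM in “CS” summer. They were near 0 in the white cultivar in both seasons, and 0 of the 6 were called (edgeR; 0 at an unadjusted p under 0.05). At such levels a season effect in “Riesling” could hardly be estimated, so the missing calls say little. Of the whole B-ring list, 4 were called with limma on log2(FPKM + 1).

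Of 8 late flavonoid genes 2 were called (25.0%, against 13.4% of all genes tested). Both were of the dihydroflavonol reductase family *VviDFR* that leads to anthocyanins and tannins. *VviDFR* (VIT_215s0048g01000, chromosome 15, 15138938 to 15141017 on 12X V2) had 0.480, 0.460 and 0.780 FPKM in “Riesling” winter and 6.58, 7.44 and 9.21 FPKM in “Riesling” summer, against 15.3, 13.7 and 13.1 FPKM in “CS” winter and 5.27, 4.02 and 3.42 FPKM in “CS” summer. It was thus lower in winter in “Riesling” and higher in winter in “CS”, without overlap in either (log2 fold change -3.68 ± 0.36 and 1.67 ± 0.28, adjusted p = 1.1e-09 and 1.2e-05; difference -5.36 ± 0.46, adjusted p = 6.7e-09). The difference was -4.48 with “Riesling” summer E-L 36 in place (adjusted p = 1.9e-07). In the second gene, *VviDFR* VIT_219s0014g04980, the winter level was lower in both cultivars, at 9.26 ± 0.548 FPKM in “Riesling” winter and 66.8 ± 12.1 FPKM in “Riesling” summer, against 14.5 ± 0.912 FPKM in “CS” winter and 37.8 ± 4.41 FPKM in “CS” summer (SD, n = 3 each). Its difference of -1.36 ± 0.25 (adjusted p = 2.5e-04) was -0.25 with “Riesling” summer E-L 36 in place (adjusted p = 0.517). A further member, *VviDFR* VIT_202s0025g01260, was at the floor of 3 counts or fewer in every “Riesling” winter and “CS” winter library and had 5.86 to 7.08 FPKM in “Riesling” summer and 0.360 to 0.800 FPKM in “CS” summer. It was not called.

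Flavonol synthases make the UV-absorbing flavonols. Of the 7 flavonol genes, 2 were called, both above 0 (28.6%, against 13.4% of all genes tested). *VviFLS5* (VIT_218s0001g03430) had 60.9, 62.8 and 67.3 FPKM in “Riesling” winter and 51.6, 51.5 and 46.4 FPKM in “Riesling” summer, against 12.1, 18.6 and 17.6 FPKM in “CS” winter and 38.3, 45.8 and 41.9 FPKM in “CS” summer. The fall in winter was in “CS” (log2 fold change -1.48 ± 0.18, adjusted p = 1.1e-07), while in “Riesling” the log2 fold change was 0.38 ± 0.17 (adjusted p = 0.0582). The difference of 1.86 ± 0.25 (adjusted p = 4.5e-06) was 1.70 with “Riesling” summer E-L 36 in place (adjusted p = 1.8e-05). *VviFLS* (VIT_211s0118g00390) followed with 32.5 ± 1.37 FPKM in “Riesling” winter and 28.6 ± 2.43 FPKM in “Riesling” summer, against 15.7 ± 1.25 FPKM in “CS” winter and 23.1 ± 0.627 FPKM in “CS” summer (SD, n = 3 each). Its difference of 0.84 ± 0.20 (adjusted p = 0.00314) was not called without “Riesling” summer replicate 2 (0.77 to 0.92 over the 12 left-out libraries) or without “CS” winter replicate 1, and was 0.08 with “Riesling” summer E-L 36 in place (adjusted p = 0.834).

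*VviLAR2* (VIT_217s0000g04150) was the called gene among 4 flavan-3-ol genes tested (25.0%, against 13.4% of all genes tested). It encodes leucoanthocyanidin reductase, which makes catechin-type tannin units. It had 4.08, 4.02 and 4.44 FPKM in “Riesling” winter and 14.0, 13.1 and 15.4 FPKM in “Riesling” summer, against 10.5, 7.16 and 7.17 FPKM in “CS” winter and 3.55, 4.09 and 3.71 FPKM in “CS” summer. The winter libraries were the lower ones in “Riesling” and the higher ones in “CS”, with no overlap in either (log2 fold change -1.62 ± 0.33 and 1.05 ± 0.34, adjusted p = 1.2e-04 and 0.0113; difference -2.68 ± 0.47, adjusted p = 1.5e-04). It was -1.05 with “Riesling” summer E-L 36 in place (adjusted p = 0.117). At E-L 36 the difference of the same gene had the opposite sign, 3.18 (adjusted p = 1.0e-05). At that stage the mean was 29.6 FPKM in “Riesling” winter and 4.54 FPKM in “Riesling” summer. *VviLAR1*, *VviANR* and the tannin regulator *VviMYBPA1* were not called (adjusted p = 0.0636, 0.312 and 0.488).

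The MYB activators of the berry colour locus gave the largest differences among the flavonoid regulators. Of these regulators, 4 of 13 were called (30.8%, against 13.4% of all genes tested). *VviMYBA2* (VIT_202s0033g00390, chromosome 2, 14179728 to 14180733) had 91.5, 85.2 and 84.5 FPKM in “Riesling” winter and 0.580, 0.330 and 0.780 FPKM in “Riesling” summer, against 146, 67.9 and 68.6 FPKM in “CS” winter and 21.9, 37.6 and 33.2 FPKM in “CS” summer. Its transcripts were nearly missing from the “Riesling” summer libraries alone (difference 5.65 ± 0.93, adjusted p = 6.5e-05). At E-L 36 the mean in “Riesling” summer was 19.2 ± 20.4 FPKM (SD, n = 3), so the replicates were very unequal. With those libraries in place the difference was 0.77 (adjusted p = 0.440). *VviMYBA1* (VIT_202s0033g00380) had 35.6, 37.0 and 35.8 FPKM in “Riesling” winter and was listed at 0 in all 3 “Riesling” summer libraries, against 53.3, 12.8 and 17.3 FPKM in “CS” winter and 5.66, 4.21 and 12.6 FPKM in “CS” summer. It was at least 27.7-fold higher in winter in “Riesling”, computed against 3 counts per library. *VviMYBA3* (VIT_202s0033g00450), likewise at the floor in “Riesling” summer, was at least 54.4-fold higher in winter in that cultivar. Both were called (adjusted p = 9.7e-04 and 0.00144), but neither with “Riesling” summer E-L 36 in place (adjusted p = 0.699 and 0.826). All 3 genes had fractional counts, so reads may have been divided among near-identical copies. In white cultivars such as “Riesling” the colour alleles are known to be non-functional. The 7 anthocyanin modification genes held no call (edgeR; 0 at an unadjusted p under 0.05; 0 with DESeq2 and limma). Among them, the 3 methyltransferase genes *VviAOMT* summed to 0 to 0.330 FPKM in “Riesling” winter and 0 to 0.0800 FPKM in “Riesling” summer. At such levels a season effect in “Riesling” could hardly be estimated, so their missing calls say little. The repressor *VviMYB4a* (VIT_203s0038g02310) was called with a difference of -0.66 ± 0.18 (adjusted p = 0.00997), but the call was lost in 10 of the 12 fits that left out a library and with “Riesling” summer E-L 36 in place (-0.24, adjusted p = 0.371).

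Stilbene synthases make resveratrol from the same precursors as chalcone synthase and respond to stress. None of the 26 stilbene genes was called (edgeR; 2 at an unadjusted p under 0.05; 2 called with DESeq2, 0 with limma), although 25 had a difference above 0 and the median was 1.21 on the log2 scale. The 24 *VviSTS* genes summed to 103, 110 and 38.6 FPKM in “Riesling” winter and 16.1, 16.1 and 20.2 FPKM in “Riesling” summer, against 1353, 479 and 460 FPKM in “CS” winter and 634, 205 and 205 FPKM in “CS” summer. “CS” replicate 1 stood apart in both seasons, at about the same factor. The 11 *VviPAL* genes showed the same replicates apart, with 523, 266 and 244 FPKM in “CS” winter and 200, 89.6 and 87.3 FPKM in “CS” summer. With both “CS” libraries of replicate number 1 left out, 0 of 26 stilbene and 0 of 18 phenylpropanoid entry genes were called, and 2033 genes over all. The median of the stilbene genes turned to -2.95 with “Riesling” summer E-L 36 in place, again with 0 called.

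UV-B signalling held 1 call among 5 genes (20.0%, against 13.4% of all genes tested). *VviCOP1-1* (VIT_212s0059g01420), which encodes a ubiquitin ligase of light signalling, had 11.0 ± 1.05 FPKM in “Riesling” winter and 4.07 ± 0.482 FPKM in “Riesling” summer, against 10.7 ± 0.199 FPKM in “CS” winter and 5.77 ± 0.135 FPKM in “CS” summer (SD, n = 3 each). It was higher in winter in both cultivars, by more in “Riesling” (difference 0.66 ± 0.14, adjusted p = 0.00117). With “Riesling” summer E-L 36 in place the difference turned to -0.02 (adjusted p = 0.956).

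Among 35 abscisic acid genes, 1 was called above 0 and 4 below (14.3%, near the 13.4% of all genes tested). *VviNCED3* (VIT_219s0093g00550, chromosome 19, 17645348 to 17647649), an enzyme of the committed step of abscisic acid synthesis, had 3.73, 2.65 and 3.21 FPKM in “Riesling” winter and 7.44, 6.87 and 4.82 FPKM in “Riesling” summer, against 18.8, 11.6 and 10.8 FPKM in “CS” winter and 2.07, 2.48 and 2.47 FPKM in “CS” summer. The winter libraries were higher in “CS” (log2 fold change 2.50 ± 0.34, adjusted p = 5.6e-07), and lay below the summer ones in “Riesling” (-0.94 ± 0.33, adjusted p = 0.0152). The difference was -3.44 ± 0.47 (adjusted p = 6.1e-06) and -3.75 with “Riesling” summer E-L 36 in place (adjusted p = 2.0e-06). 2 protein phosphatases of the PP2C family, which act as negative regulators of abscisic acid signalling, were called in opposite directions. *VviPP2C* VIT_205s0020g01460 was higher in winter in “Riesling”, at 25.3 ± 0.684 FPKM in winter and 12.2 ± 0.860 FPKM in summer, against 28.9 ± 2.29 FPKM in “CS” winter and 21.4 ± 1.51 FPKM in “CS” summer (SD, n = 3 each; difference 0.72 ± 0.18, adjusted p = 0.00418). That difference was 0.36 with “Riesling” summer E-L 36 in place (adjusted p = 0.152). *VviPP2C* VIT_218s0001g03620, which did not change between stages, had 2.70, 2.93 and 2.12 FPKM in “Riesling” winter and 3.24, 4.24 and 2.00 FPKM in “Riesling” summer, against 7.45, 3.56 and 2.80 FPKM in “CS” winter and 1.23, 0.980 and 0.950 FPKM in “CS” summer. Its difference of -2.28 ± 0.63 (adjusted p = 0.00858) lost the call in 9 of the 12 fits that left out a library, and that of VIT_205s0020g01460 in 4 of the 12. The difference of VIT_218s0001g03620 was -2.52 with “Riesling” summer E-L 36 in place (adjusted p = 0.00395). The other called genes below 0 were an abscisic aldehyde oxidase, which makes abscisic acid, and a kinase of the SnRK2 family.

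Of 21 ethylene genes, 1 was called above 0 and 2 below (14.3%, near the 13.4% of all genes tested). *VviACS2* (VIT_202s0025g00360, chromosome 2, 471971 to 475220), which makes the precursor of ethylene, had 0.350, 0.220 and 0.140 FPKM in “Riesling” winter and 7.27, 7.59 and 5.37 FPKM in “Riesling” summer, against 7.05, 1.62 and 1.80 FPKM in “CS” winter and 0.990, 1.15 and 0.560 FPKM in “CS” summer. It was lower in winter in “Riesling” without overlap (log2 fold change -4.73 ± 0.86, adjusted p = 2.5e-05), and in “CS” the winter libraries lay above the summer ones, with replicate 1 far above the others (1.86 ± 0.72, adjusted p = 0.0344). The difference was -6.59 ± 1.13 (adjusted p = 1.0e-04), -5.73 without both “CS” libraries of replicate number 1 and -6.90 with “Riesling” summer E-L 36 in place. The replicates of “Riesling” summer E-L 36 were very unequal in this gene, at 8.93 ± 11.0 FPKM (SD, n = 3). *VviSIMKK* (VIT_211s0016g01770), a kinase placed in ethylene signalling by the study's annotation, was lower in winter in both cultivars, by more in “Riesling” (9.23 ± 0.483 FPKM in “Riesling” winter and 31.0 ± 3.29 FPKM in “Riesling” summer, against 10.3 ± 0.252 FPKM in “CS” winter and 21.0 ± 2.38 FPKM in “CS” summer, SD, n = 3 each; difference -0.64 ± 0.13, adjusted p = 6.4e-04). Its difference was -0.12 with “Riesling” summer E-L 36 in place (adjusted p = 0.545). *VviCTR1* (VIT_200s0684g00010), a negative regulator of ethylene signalling, had a difference of 1.79 ± 0.48 (adjusted p = 0.00723), which was not called in 7 of the 12 fits that left out a library, nor with “Riesling” summer E-L 36 in place (1.38, adjusted p = 0.0332).

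The auxin list held the most calls, 10 above 0 and 5 below of 51 genes (29.4%, against 13.4% of all genes tested). Of these 15, 10 were called again in the same direction with “Riesling” summer E-L 36 in place. The median difference over all 51 genes was 0.03. The *VviAUX/IAA* genes encode repressors of auxin response, and 4 of 11 were called above 0 and 2 below (54.5%, against 13.4% of all genes tested). *VviAUX/IAA* VIT_214s0030g02310 (chromosome 14, 7536123 to 7537737) had 29.8, 34.0 and 35.1 FPKM in “Riesling” winter and 2.00, 1.07 and 2.10 FPKM in “Riesling” summer, against 10.2, 8.60 and 7.44 FPKM in “CS” winter and 6.39, 7.18 and 7.18 FPKM in “CS” summer. The winter increase was large in “Riesling” (log2 fold change 4.32 ± 0.36, adjusted p = 4.8e-11), and the log2 fold change in “CS” was 0.31 ± 0.32 (adjusted p = 0.433). The difference of 4.00 ± 0.47 (adjusted p = 9.2e-07) was 3.35 with “Riesling” summer E-L 36 in place (adjusted p = 5.8e-06), since the mean of the gene there was 2.86 FPKM.

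*VviAUX/IAA* VIT_209s0002g04080 went the other way, with 0.110, 0.200 and 0.110 FPKM in “Riesling” winter and 3.91, 2.47 and 1.87 FPKM in “Riesling” summer, against 0.570, 0.420 and 0.550 FPKM in “CS” winter and 0.520, 0.360 and 0.480 FPKM in “CS” summer. In “CS” the seasons overlapped, and the “Riesling” groups lay on either side of them (difference -4.13 ± 0.55, adjusted p = 4.5e-06; -3.90 with “Riesling” summer E-L 36 in place, adjusted p = 1.1e-05). At E-L 36 the means were 1.83 FPKM in “Riesling” winter and 2.52 FPKM in “Riesling” summer, against 0.397 FPKM in “CS” winter and 1.19 FPKM in “CS” summer. *VviAUX/IAA* VIT_205s0020g01070, at the floor in “Riesling” summer, was at least 28.1-fold higher in winter in “Riesling”.

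Auxin synthesis was represented by *VviTAR1* (VIT_200s0225g00230), a tryptophan aminotransferase. It had 334, 341 and 336 FPKM in “Riesling” winter and 8.63, 9.58 and 7.19 FPKM in “Riesling” summer, against 108, 236 and 227 FPKM in “CS” winter and 79.8, 283 and 285 FPKM in “CS” summer. The seasons overlapped in “CS”, where replicate 1 was the lowest of each season, and were far apart in “Riesling” (difference 5.60 ± 1.00, adjusted p = 1.7e-04; 3.63 with “Riesling” summer E-L 36 in place, adjusted p = 0.00649). All 12 of its counts were fractional. Auxin influx carriers of the *VviAUX1* family were called above 0 in 3 of 6 genes and below 0 in 1 (66.7%, against 13.4% of all genes tested). The gene below 0, *VviAUX1* VIT_206s0061g01210, was higher in winter in both cultivars, by more in “CS”, with 22.4, 22.3 and 20.2 FPKM in “Riesling” winter and 8.31, 8.54 and 9.17 FPKM in “Riesling” summer, against 14.0, 5.47 and 4.17 FPKM in “CS” winter and 0.790, 0.960 and 0.270 FPKM in “CS” summer (difference -2.11 ± 0.53, adjusted p = 0.00448). Its call was lost without “CS” winter replicate 1 (-1.46) or without “CS” summer replicate 3, and the difference was -3.23 with “Riesling” summer E-L 36 in place (adjusted p = 5.9e-05). Other auxin genes called above 0 included the receptor *VviTIR1* (VIT_200s0181g00040, 1.48 ± 0.21) and a response factor, *VviARF* VIT_211s0016g00640 (1.54 ± 0.25), which was the other named gene that did not change between stages and was not called with “Riesling” summer E-L 36 in place (0.34, adjusted p = 0.349). A second response factor, *VviARF* VIT_200s1203g00010, was called below 0 (adjusted p = 0.00265; 0.0648 with “Riesling” summer E-L 36 in place). It had 0.390, 0.600 and 0.550 FPKM in “Riesling” winter and 4.59, 4.81 and 5.42 FPKM in “Riesling” summer, against the floor of 3 counts or fewer in every “CS” library, so no fold is given for “CS”. Of the 10 *VviSAUR* genes, auxin-induced growth genes, 1 was called, below 0 (10.0%, near the 13.4% of all genes tested).

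**Figure D5:**
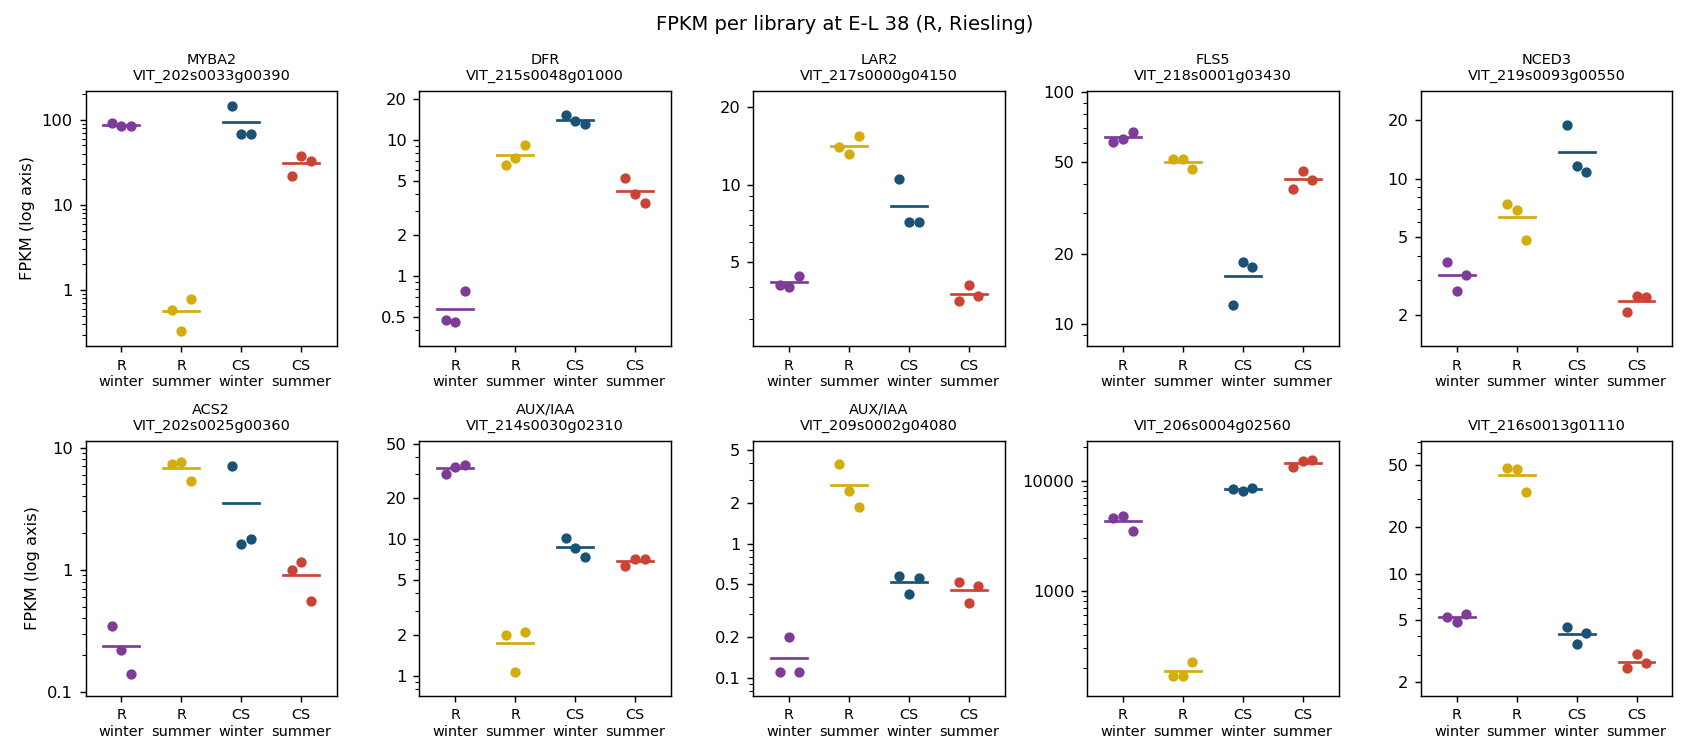
FPKM of 10 called genes in the 12 libraries of E-L 38 (vertical axes, log scale), with “Riesling” (R) winter and summer left of “CS” winter and summer; points are libraries and lines are means of 3. In *VviMYBA2* and VIT_216s0013g01110 the “Riesling” summer libraries alone stand apart, while *VviDFR*, *VviLAR2* and *VviNCED3* have the season in opposite order in the cultivars.

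Few genes without a stage change had large differences, and 4 are given here by identifier, the largest in each direction with a mean of at least 1 FPKM in every group. VIT_206s0004g02560 (chromosome 6, 3075721 to 3076606) was among the most abundant transcripts of “CS”, with 4526, 4806 and 3451 FPKM in “Riesling” winter and 167, 169 and 224 FPKM in “Riesling” summer, against 8335, 8014 and 8628 FPKM in “CS” winter and 13404, 14968 and 15365 FPKM in “CS” summer. “Riesling” was below “CS” in both seasons, by far the most in summer (difference 5.42 ± 0.81, adjusted p = 1.8e-05). The difference was as large with “Riesling” summer E-L 36 in place (5.97, adjusted p = 7.1e-06) and at E-L 36 itself (4.98, adjusted p = 5.2e-05), where the mean in “Riesling” summer was 136 FPKM. It was called in all 12 fits that left out a library.

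VIT_216s0013g01110 (chromosome 16, 7011487 to 7025010) had 5.27, 4.90 and 5.51 FPKM in “Riesling” winter and 47.8, 47.2 and 33.7 FPKM in “Riesling” summer, against 4.54, 3.54 and 4.17 FPKM in “CS” winter and 2.46, 3.03 and 2.67 FPKM in “CS” summer. It was high in the “Riesling” summer libraries alone (difference -3.51 ± 0.75, adjusted p = 0.00111). Its mean in “Riesling” summer was 33.0 ± 38.8 FPKM at E-L 35 and 6.71 ± 4.76 FPKM at E-L 36 (SD, n = 3 each), so those replicates were very unequal. With the libraries of E-L 36 in place the difference was -0.73 (adjusted p = 0.533). VIT_206s0009g03670 had a difference of -3.07 ± 0.61 (adjusted p = 5.4e-04), with 4.76 ± 0.304 FPKM in “Riesling” winter and 11.9 ± 2.66 FPKM in “Riesling” summer, against 9.92 ± 7.17 FPKM in “CS” winter and 2.69 ± 0.484 FPKM in “CS” summer (SD, n = 3 each). “CS” winter replicate 1, at 18.2 FPKM, was far above the other 2 libraries of that group. The difference of VIT_206s0009g03670 was -2.17 with “Riesling” summer E-L 36 in place (adjusted p = 0.0108). VIT_218s0075g01080 had 7.43 ± 3.51 FPKM in “Riesling” winter and 1.40 ± 0.835 FPKM in “Riesling” summer, against 3.58 ± 1.79 FPKM in “CS” winter and 5.89 ± 1.72 FPKM in “CS” summer (SD, n = 3 each). Its difference was 3.30 ± 0.91 (adjusted p = 0.00887), and its call was lost in 9 of the 12 fits that left out a library and with “Riesling” summer E-L 36 in place (1.81, adjusted p = 0.115).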

How the data were processed

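RNA of deseeded berries was sequenced as single reads, which the authors aligned to the grapevine genome 12X V2 (Bowtie is named in the submitters' processing notes, version not given). The deposited expected counts are reads per gene without normalization, made by the authors from the aligned reads, and genes without a row were set to 0. The counting program and whether it used the strand are not given in the sources used here. The deposited FPKM values divide the reads by gene length and library size. Of the listed genes, 23.79% to 28.32% per library of E-L 38 had a fractional count. A series table with 36 numbered columns was not used, because the numbers name no library. Gene names come from the paper's annotation, since 0 identifiers matched the reference table of names.

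Expected counts were rounded and filtered with filterByExpr over the 12 conditions, which left 20183 of 28441 genes. All 36 libraries were normalized with TMM and fitted in edgeR 4.0.16 (R 4.3.3, glmQLFit and glmQLFTest). The SE was taken as the absolute log2 difference over the root of F. A group with every library at 3 counts or fewer was at the floor, for counting error only, and the fold against it is a lower bound. Alternatives used DESeq2 1.42.0, limma 3.58.1 on log2(FPKM + 1) and log2(FPKM + 0.1), other filters and scalings, each library of E-L 38 left out and other stage definitions. The fit was tested on simulated data. Python 3.11.15 with numpy 2.4.6, pandas 2.3.3 and matplotlib 3.10.9 made the counts and plots. Genes were named by rule: of each list, up to 2 called genes of each sign with the largest difference and no group at the floor, and 2 of each sign by identifier among genes without a stage change and with at least 1 FPKM in every group. Other named genes were chosen after their values were seen. The members, lists and tests were chosen with earlier results of these data known. The replicates are biological replicates of the same vineyard, so p-values measure the spread between these samples.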

Additional observations from a re-analysis of the deposited data

Results flagged for a closer look

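The difference in season effect between the cultivars was called for 2701 genes at E-L 38, where the “Riesling” summer libraries stood apart in ripening position. This difference was itself unequal at E-L 38 and E-L 36 in 3028 genes (edgeR's quasi-likelihood F-test, adjusted p of at most 0.01), in libraries that the stages do not share. Among the genes named by rule, 14 were in the second group. These genes were named for a called difference at E-L 38, which is part of this contrast, so the count is no independent support. The second group held 1496 (55.4%) of the 2701 genes and 15.0% of all genes tested.

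In the flavonoid genes the difference at E-L 38 minus that at E-L 36 was, on the log2 scale, 2.95 for *VviCHI*, -3.40 for *VviF3′H*, -4.37 for *VviDFR* VIT_215s0048g01000, -1.93 for *VviDFR* VIT_219s0014g04980, 1.91 for *VviFLS*, -5.86 for *VviLAR2* and 5.75 for *VviMYBA2*. *VviLAR2* had the largest of these, as its difference was 3.18 at E-L 36 and -2.68 at E-L 38. It was 1.04 for *VviCOP1-1*.

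In the hormone genes it was 1.21 for *VviPP2C* VIT_205s0020g01460, -2.49 for *VviNCED3*, -0.79 for *VviSIMKK*, 5.19 for *VviAUX/IAA* VIT_214s0030g02310 and -5.23 for *VviAUX/IAA* VIT_209s0002g04080. Of the genes without a stage change, VIT_216s0013g01110 had -4.04. The ripening index of the libraries moves with these values, since at E-L 36 the “Riesling” winter libraries had 0.52 ± 0.09 and the “Riesling” summer libraries 0.70 ± 0.07, against 1.16 ± 0.03 and -0.55 ± 0.02 at E-L 38 (SD, n = 3 each). Its part in them was not tested.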

How the results depend on the processing

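The count of 2701 called genes stayed within 1.5 times of its value under the other tools, scalings and filters (DESeq2 3325, RLE factors 2738, no filter 2399, CPM of at least 1 in at least 3 libraries 2703, only the 12 libraries of E-L 38 2695, limma 3124 and 2935) and without genes at the floor (2612) or with a fractional count (1883). Limma on log2(FPKM + 1) moved the share above 0 to 34.4%, against 47.6%, and the median of all genes to -0.08. With a limit of at least 1 on the log2 scale, 1673 genes were called, 696 above 0. At an adjusted p of at most 0.05, 4841 were called, 2350 above 0 and 2491 below. With E-L 36 over E-L 35 as the stage definition, 1060 called genes changed between stages in place of 1748. With “Riesling” summer added to the definition, for 12 contrasts in all, 1857 did. The difference in ripening index was 2.04 with genes of E-L 38 over E-L 35 and 1.45 on the log2(FPKM + 1) scale, against 1.53.

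Over the 12 left-out libraries, 2127 to 2402 genes were called, 1025 to 1173 above 0 and 1075 to 1229 below, and 1415 to 1536 of them changed between stages. The season effect was called for 5171 to 5646 genes in “Riesling” and 2995 to 3472 in “CS”, the difference between the stages for 2669 to 2988, and the index difference was 1.51 to 1.56. With the replicate number as a block 2556 genes were called. Same-numbered winter and summer libraries had correlations of deviations of -0.008 to 0.052, none above 0.1, so the numbers were not taken to pair the samples, although 3 of the 6 winter libraries correlated best with their own number and the “CS” libraries of replicate number 1 stood apart in both seasons in stilbene synthase genes. Of 565 alternative values of the named genes, 482 kept the call and direction. *VviCOP1-1* changed sign, to -0.02, with “Riesling” summer E-L 36 in place. The alternative that leaves out both “CS” libraries of replicate number 1 and the direction count with “Riesling” summer E-L 36 were chosen after seeing the data. At these totals 3 counts are up to 0.353 CPM, and 143 of the called genes had a group at this floor, where a fitted fold is no bound.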
